A study of Rattus norvegicus with 6 samples.

Results

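Of the 145823 CHH regions listed as different between CUMS and Ctrl in hippocampal brain microvascular endothelial cells (BMECs), 750 (0.514%) reached a mean methylation level of 20% or more in the group with the higher level, and these 750 are described here. They were taken from 160692 differentially methylated regions (DMRs) of all contexts in the full table. The CHH list goes down to differences of 2 percentage points, and 140695 of its regions were below 10% in both groups. The study's methods ask for a difference of at least 10%. Shares over all CHH regions therefore rest mostly on regions that do not meet that limit. The members were chosen by the mean level in each group, so levels and direction are given as a description and no test was made on them. CUMS stands for chronic unpredictable mild stress, which these rats underwent over 8 weeks, with 1 stressor a day drawn at random from restraint, deprivation of food and water, a tilted cage, wet bedding, a cold swim or continuous light. Ctrl rats stayed in their home cages. Each group held 3 samples of male Sprague-Dawley rats, and the cells were sorted from dissociated hippocampus as CD31+ and CD45-. The methylation tables hold no expression value, so the identity of the sorted cells could not be checked against marker genes. They give 1 level per group and region with neither read depth nor a value per rat, so no difference below could be set against the spread between rats.

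Cytosine methylation in mammals is found mostly at CG sites, where maintenance enzymes copy it after replication. In the CHH context the cytosine is followed by neither a neighbouring G nor a G at the next position (H is A, C or T), the opposite strand carries no matching site to copy from, and methylation depends on the de novo enzymes DNMT3A and DNMT3B. It is abundant in neurons, oocytes and pluripotent cells and scarce in most other somatic cells. In the enzymatic libraries used here, every cytosine that escaped deamination was read as methylated, whatever the reason.

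Promoters held a small part of these regions and are shown first because RefSeq sequence was at hand for them. Of 15 genes with a promoter annotated to such a region, 10 matched a symbol in a RefSeq promoter table (GRCr8), which holds 250 bp before to 50 bp after each start. The windows of the 3 genes with the highest promoter levels are shown to make the CHH context visible at the named genes. Capitals mark CHH cytosines, as C on the printed strand and as G where the cytosine is on the opposite strand. The methylated region, located on mRatBN7.2, need not lie within this window.
Maml2: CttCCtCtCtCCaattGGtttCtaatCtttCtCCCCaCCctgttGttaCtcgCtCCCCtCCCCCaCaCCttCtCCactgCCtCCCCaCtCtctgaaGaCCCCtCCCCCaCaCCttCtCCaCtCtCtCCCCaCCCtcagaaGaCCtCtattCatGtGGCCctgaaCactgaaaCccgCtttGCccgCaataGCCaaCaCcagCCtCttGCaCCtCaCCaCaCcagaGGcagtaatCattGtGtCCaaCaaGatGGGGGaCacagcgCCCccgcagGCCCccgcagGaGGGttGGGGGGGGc
Gbp4: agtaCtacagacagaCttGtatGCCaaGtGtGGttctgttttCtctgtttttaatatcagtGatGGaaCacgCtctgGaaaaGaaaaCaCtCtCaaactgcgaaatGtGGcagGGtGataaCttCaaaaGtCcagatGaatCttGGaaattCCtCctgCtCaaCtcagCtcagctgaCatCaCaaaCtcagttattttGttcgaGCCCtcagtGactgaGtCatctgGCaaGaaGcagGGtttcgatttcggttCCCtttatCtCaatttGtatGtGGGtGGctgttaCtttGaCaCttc
Olr943: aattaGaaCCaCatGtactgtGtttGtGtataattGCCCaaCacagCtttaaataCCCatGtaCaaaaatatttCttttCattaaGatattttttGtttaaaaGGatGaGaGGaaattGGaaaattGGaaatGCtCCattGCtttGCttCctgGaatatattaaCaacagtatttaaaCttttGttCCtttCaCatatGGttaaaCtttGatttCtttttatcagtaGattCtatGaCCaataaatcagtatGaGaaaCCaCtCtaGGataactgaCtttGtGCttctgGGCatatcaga
The Maml2 window (chr8:18552230-18552529, plus strand) is a C-rich stretch with 137 CHH cytosines, 28 CHG and 12 CG cytosines. Its density of 45.7 CHH cytosines per 100 bp was reached by 0.364% of 33469 RefSeq windows. The Gbp4 window (chr2:233978236-233978535, plus strand) holds 77 CHH cytosines and the Olr943 window (chr7:4039238-4039537, minus strand) holds 75, or 25.7 and 25 per 100 bp. The median window held 32.3 per 100 bp, so Maml2 stood above and the other two below it.

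The direction of the 750 regions was examined first. In 645 regions (86.0%) the level was higher in CUMS and in 105 it was higher in Ctrl, while 64.6% of all CHH regions were higher in CUMS. This share rose with the level before the limit was reached. It was 62.0% for CHH regions with a level below 3% in the higher group, 70.5% at 5 to 10%, and 85.3% at 15 to 20%. Above the limit it stayed close to that value, with 86.2% of 427 regions at 20 to 25%, 84.6% of 175 at 25 to 30% and 86.5% of 133 at 30 to 50%. Of the 15 regions at 50% or more, 14 were higher in CUMS and 1 in Ctrl. The limit therefore marks no step in direction. The 3 regions just outside it, on chromosomes 1, 6 and 19, were each at 19.99%, and the 3 just inside it, on chromosomes 3, 1 and 1, lay between 20% and 20.03%.

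**Figure D1:**
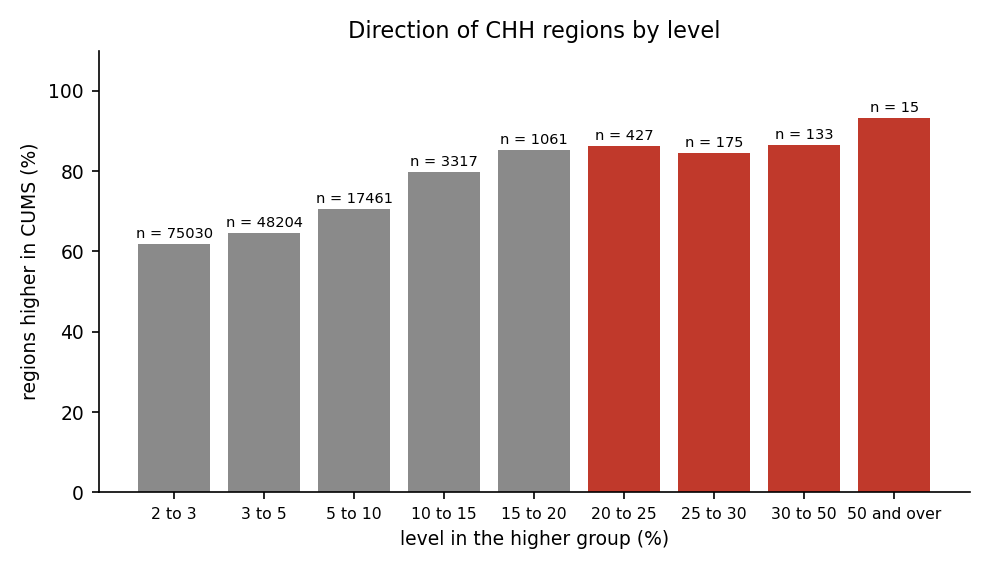
Share of CHH regions with the higher level in CUMS (y axis, %) by level in the higher group (x axis, %), with the number of regions above each bar. Red bars are the 750 regions at 20% or more and grey bars are the remaining CHH regions; the share climbs from 62.0% to 85.3% in the grey bars and lies between 84.6% and 93.3% in the red bars.

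Most of these regions were nearly unmethylated in the other group. The median level was 24.2% in the higher group (quartiles 21.8% and 28.3%) and 0.436% in the lower group (quartiles 0.148% and 2.81%). Averaged over the bodies of all genes, CHH cytosines stood at 0.355% in CUMS and 0.329% in Ctrl, so the lower group was typically near that general level. In regions higher in CUMS the medians were 24.2% in CUMS and 0.454% in Ctrl, and in regions higher in Ctrl they were 0.304% in CUMS and 24.3% in Ctrl. The level in the higher group is bounded by the selection at 20% in both directions.

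A minority was methylated in both groups. The lower group was below 1% in 487 regions (64.9%), between 1% and 5% in 137 (18.3%) and at 5% or more in 126 (16.8%). The same level of 5% or more was seen in the lower group of 4.75% of CHH regions at 10 to 20%. A lower higher-group level leaves less room for 5% in the other group, so these shares are not like for like. The share was 9.52% at 15 to 20% and 12.9% at 20 to 25%. In 8 regions both groups exceeded 20%, and each of these 8 was higher in CUMS. The highest was chr2:184453155-184453277 with 85.5% in CUMS and 64.0% in Ctrl, which was outside the annotated list. The next was chr16:21547295-21547558 with 77.1% and 37.0%. Only 2 of these 8 were annotated, and both lay in introns. Diaph3, encoding a formin that builds actin filaments, was at 51.6% in CUMS and 26.8% in Ctrl, over an L1_Rat1 element. Tmem237, encoding a protein of the ciliary transition zone, was at 41.3% and 21.02%, over a RatSatRep2 repeat.

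**Figure D2:**
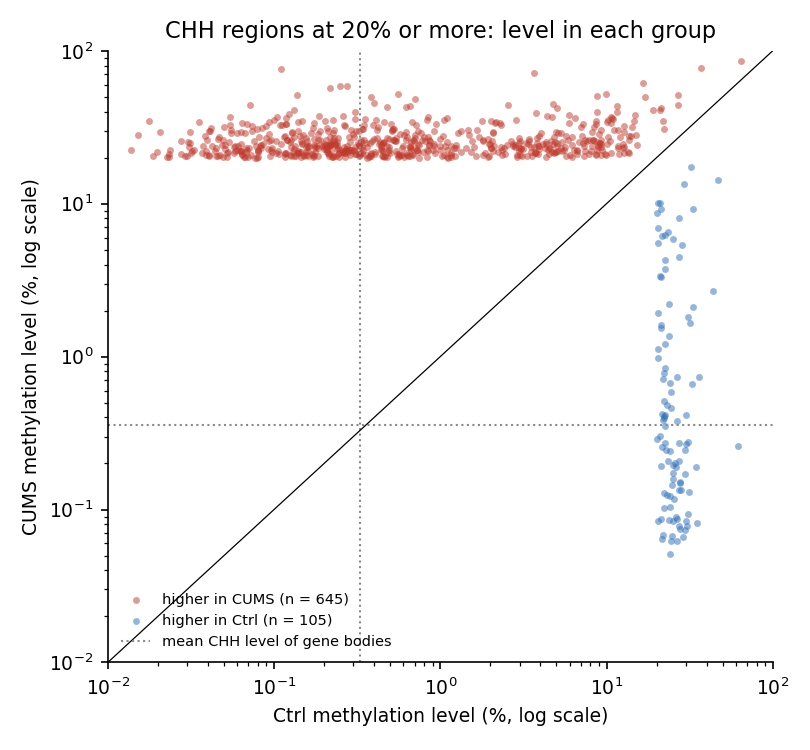
Level of each of the 750 CHH regions in Ctrl (x axis, %, log scale) and CUMS (y axis, %, log scale); each point is 1 region, red where CUMS is higher (645) and blue where Ctrl is higher (105), and dotted lines mark the mean CHH level over gene bodies. Most points lie far from the diagonal, with the lower group at a median of 0.436%.

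The individual regions with the highest CUMS levels were mostly intronic or unannotated. An intron of Kirrel3, a cell adhesion protein of the immunoglobulin superfamily, carried 75.9% in CUMS and 0.109% in Ctrl over 87 cytosines (chr8:33310586-33310726). An intron of Rasgrp2, an exchange factor for the GTPase Rap1, carried 58.6% and 0.25% (chr1:203712862-203713083, over an RSINE1 element). An intron of Vcan, which encodes the matrix proteoglycan versican, carried 52.5% and 0.555% over 191 cytosines (chr2:20836497-20836890). These 3 were close to 0 in Ctrl. On chromosome X, chrX:140035354-140035670 in an intron of NEWGENE_1565644 and an NICER1C_Rn_LTR element was at 71.0% and 3.67%, and chrX:4120892-4121176 over an ORR1E element was at 57.1% and 0.216%. The remaining 3 of the 10 highest were chr2:164100981-164101221 (61.2% and 16.7%), chr1:166593617-166593724 (58.4% and 0.273%, with 19 cytosines) and the L1_Rat1 element at chr3:124736150-124736763 (52.1% and 9.96%, with 292 cytosines).

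In the opposite direction the highest Ctrl level was in an intron of Bbx, which encodes an HMG-box transcription factor, with 0.259% in CUMS and 62.0% in Ctrl over 61 cytosines (chr11:50520045-50520296). The next regions were chr2:184460568-184460675 with 14.2% and 46.6%, and chr11:22601598-22601658 with 2.70% and 43.5%. The last of these held 4 cytosines, the fewest of all 750. An exon of the gene ENSRNOG00000068065 carried 0.19% in CUMS and 34.6% in Ctrl (chr11:35438850-35439013), and an L1_Rat1 element was at 0.735% and 36.2% (chr6:13859663-13859926). Of the 5 others, 3 had little methylation in CUMS, namely chrX:126173170-126173463 (0.0816% and 35.1%), chr10:67935485-67935625 (2.10% and 33.1%) and an intron of ENSRNOG00000027542 over an RMER17C2 element at chr1:189238913-189239178 (0.661% and 32.5%). Both of the last, chr4:30263253-30263515 (9.19% and 33.1%) and chrX:51852255-51852477 (17.3% and 32.1%), were methylated in both groups. Apart from Bbx, each of the 10 highest regions in this direction was below 50% in Ctrl.

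Regions at 20% or more were longer and richer in CHH cytosines than the remaining CHH regions. Their median length was 259.5 bp, against 246 bp for regions at 10 to 20% and 171 bp for regions below 10%. They held a median of 110 CHH cytosines (range 4 to 311), against 103 and 59. Per 100 bp this was 42.9, 42.3 and 35.1. At least 50 CHH cytosines per 100 bp were present in 179 of the 750 (23.9%), in 21.3% of the regions at 10 to 20% and in 3.60% of those below 10%. They were present in 0.146% of the RefSeq promoter windows, which have a fixed length of 300 bp at gene starts. Few members lay in promoters, so these windows are not a matched background. Size and density therefore resembled those of the 10 to 20% class and differed from the bulk of CHH regions, with no further increase at higher levels. The region with the most cytosines, chr16:82498866-82499567 over a PB1 element, was 702 bp long with 311 cytosines at 25.6% in CUMS and 0.812% in Ctrl. The densest of the 5 with the most cytosines, chr6:6106058-6106402, had 75.1 per 100 bp and levels of 24.2% and 2.81%. The others were chr2:24854117-24854571 with 291 cytosines (29.8% and 0.92%) and chr1:86227529-86227943 over an ORR1F element with 243 (23.0% and 4.25%). All 5 of these, with the L1_Rat1 element named above, were higher in CUMS.

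**Figure D3:**
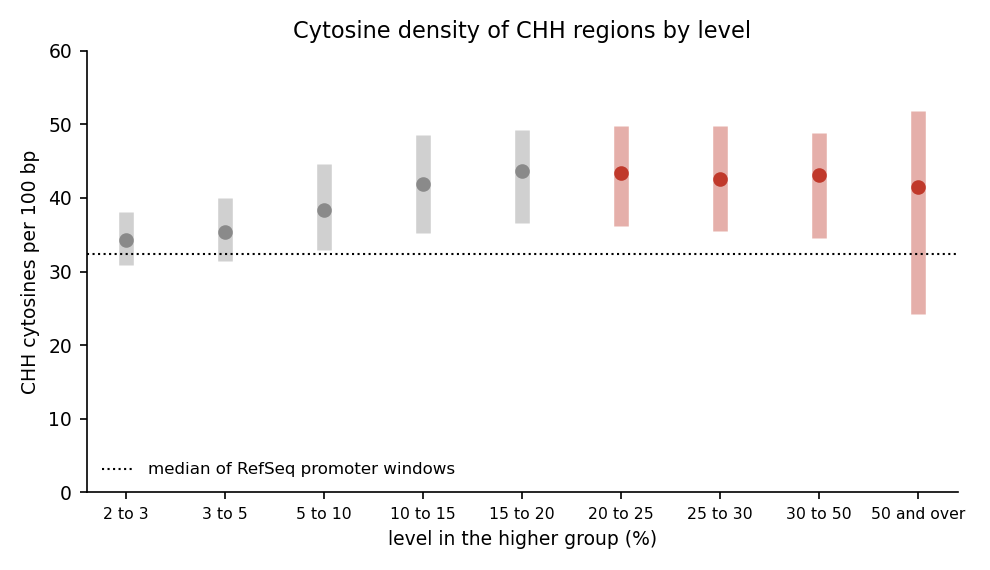
CHH cytosines per 100 bp (y axis) by level in the higher group (x axis, %); points are medians and bars run from the first to the third quartile, red for the 750 regions and grey for the remaining CHH regions, with the median of RefSeq promoter windows dotted. The medians rise from 34.4 below 3% to 43.6 at 15 to 20% and lie between 41.5 and 43.4 above the limit.

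Direction and size went together. Among members with under 50 cytosines, 45 were higher in CUMS and 36 in Ctrl (55.6%). With 50 to under 100 cytosines the numbers were 184 and 44 (80.7%), with 100 to under 150 they were 293 and 21 (93.3%), and with 150 or more they were 123 and 4 (96.9%). The same order was present in regions at 10 to 20%, from 58.3% to 90.4%, and over a narrower range in regions below 10%, from 60.4% to 75.2%. Regions higher in Ctrl were accordingly smaller, with medians of 199 bp and 63 cytosines against 263 bp and 115 cytosines. Of the 18 regions with under 20 cytosines, 6 were higher in CUMS and 12 in Ctrl. By density, 61.8% of the 102 regions with under 30 cytosines per 100 bp were higher in CUMS, and 90.5% of the 179 with 50 or more. In regions below 10% the share was slightly lower in the denser class, at 64.1% and 60.8%. The part of cytosine number and density in the direction was not tested.

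**Figure D4:**
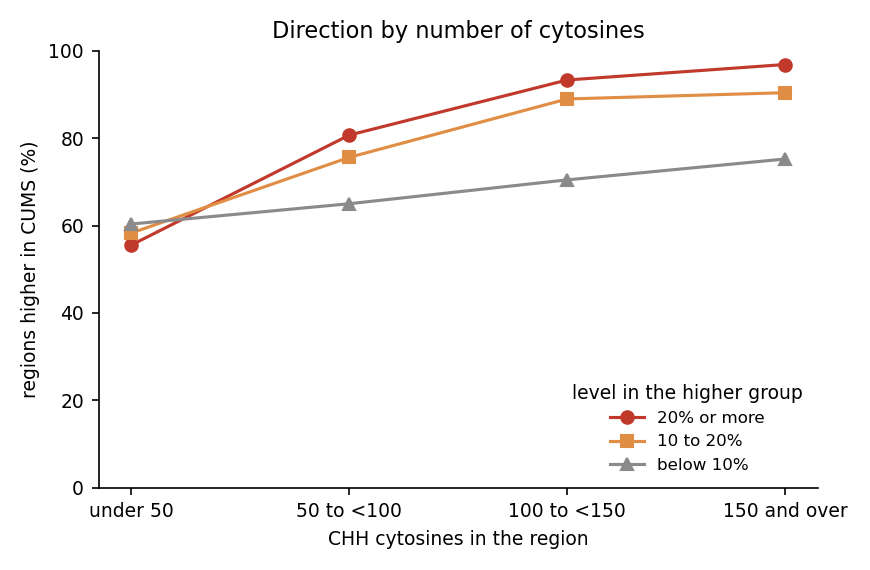
Share of regions with the higher level in CUMS (y axis, %) by the number of CHH cytosines in the region (x axis), for the 750 regions at 20% or more (red circles), regions at 10 to 20% (orange squares) and regions below 10% (grey triangles). The red line climbs from 55.6% to 96.9% and the grey line from 60.4% to 75.2%.

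Features were annotated by the authors only for a reduced list, which held the 10000 CHH regions with the largest absolute region score. That score sums over cytosines, so large regions enter more easily. Of the 750 regions, 552 were annotated, with a median of 122.5 cytosines and 92.6% higher in CUMS. The 198 without annotation had a median of 54 cytosines and 67.7% higher in CUMS. Feature shares below refer to the 552 and are set beside the 9444 other annotated CHH regions.

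Of the annotated regions, 195 (35.3%) lay in introns, against 38.2% of the other annotated CHH regions. Promoters held 15 (2.72%, against 3.49%) and exons 6 (1.09%, against 3.02%). None lay in a 5′ untranslated region, which held 60 of the others (0.635%). In all, 206 (37.3%, against 41.1%) had a gene feature, and 178 (32.2%, against 26.2%) had neither a gene nor a repeat. By CpG context 533 (96.6%) were in open sea, away from CpG islands, and 1 lay in a CpG island (chrX:119361757-119362001 over an Lx5b element, 23.6% in CUMS and 0.661% in Ctrl). Exons and islands thus held few of the annotated regions, and most lay in introns or outside genes, as did most of the other annotated CHH regions.

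All 15 promoter regions were higher in CUMS, beside 92.6% of all annotated members, which is close to that count. The highest were the promoters of Maml2, which encodes a coactivator of Notch signalling (31.5% in CUMS and 7.02% in Ctrl, chr8:10267126-10267386), and of Gbp4, an interferon-induced guanylate-binding protein (30.4% and 11.1%, chr2:231304661-231304863). The regions held 46.4 and 48.8 CHH cytosines per 100 bp, so the region at Gbp4 was denser than the RefSeq window printed above. Both genes carried methylation in Ctrl too, unlike most of the promoters. Olr943, an olfactory receptor gene, was at 27.8% and 1.04% (chr7:3393010-3393291). Il22ra1, encoding a subunit of the interleukin-22 receptor, was at 26.8% and 0.418% (chr5:147959123-147959423, over an ID_Rn2 element). Osm, encoding the cytokine oncostatin M, was at 22.3% and 0.341% (chr14:79102624-79102898). Vav3, encoding a guanine nucleotide exchange factor, was at 22.6% and 6.38% (chr2:197009792-197010077). Tacc1, encoding a coiled-coil protein, was at 24.9% and 2.97% in the shore of a CpG island (chr16:66810206-66810465). These 7 promoters thus ranged from near 0 to 11.1% in Ctrl.

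At chr20:1407804-1408055 a single region covered the transcription start of AABR07044301.1 and an intron of Ubd, which encodes a ubiquitin-like protein, with 24.4% in CUMS and 2.74% in Ctrl. The promoter of ENSRNOG00000062855 lies in an intron of Traf3, an adaptor of tumour necrosis factor receptors, and carried 26.6% and 0.398% (chr6:130215307-130215585). The promoter of AABR07058519.1 lies in an intron of Tnrc6b, a partner of Argonaute in microRNA silencing, and carried 23.0% and 0.655% (chr7:112265859-112266182). In each of these 3 places the region belonged to overlapping annotations. The only region in a 3′ untranslated region was in Galnt17, an N-acetylgalactosaminyltransferase gene, at 25.2% and 0.46% (chr12:25780009-25780280). A second region lay 4907 bp further on, at 23.7% and 1.07%. Over all 20 regions in a promoter or exon, 19 were higher in CUMS, again close to the 92.6% of all annotated members, and the median level in the higher group was 22.8%.

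Repeats covered 254 of the 552 regions (46.0%), against 52.3% of the other annotated CHH regions. Long terminal repeat (LTR) elements, the remains of endogenous retroviruses, were the largest class with 135 regions (24.5%, against 22.7%), of which 88 (15.9%, against 13.3%) were in the ERVK family. LINE elements held 69 (12.5%, against 15.3%) and the short SINE elements held 79 (14.3%, against 19.3%). The shares of these classes were near those of the other annotated regions, and no difference between them was tested. Of the 79 SINE regions 78 were higher in CUMS, including all 35 in the Alu (B1) family and all 26 in the B4 family. Of the 135 LTR regions 122 were higher in CUMS and 13 in Ctrl, and the background in the annotated set was 92.6%. Among single elements RMER17C2 held 15 regions (2.72%, against 2.36%) and RLTR20A4 held 12 (2.17%, against 1.66%). RNLTR2d held 11 (1.99%, against 1.24%), as did ID_B1 (1.99%, against 2.435%). Each of these shares was small in both sets, and no difference was tested. The level in the higher group had a median of 30.0% for RLTR20A4 and 35.3% for the 8 regions over L1_Rat1, against 24.2% for all members. These were the highest medians among the elements counted and were picked after their values were seen. The medians of the remaining elements ran from 22.5% for PB1D10 to 26.9% for B4A. RLTR32_Rn held 9 regions, of which 5 were higher in CUMS and 4 in Ctrl.

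Repeats and density were not the same property. Repeats covered 33.1% of the annotated regions with at least 50 cytosines per 100 bp and 51.6% of the less dense ones. By level in the lower group, they covered 37 of 66 annotated regions at 5% or more (56.1%). The shares were 43.0% of those at 1 to 5% and 45.1% of those below 1%, so there was no steady rise.

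The 206 regions with a gene feature were spread over 201 genes, among 3024 genes with any annotated CHH region. More than 1 region was found in 10 genes. Grm8, a metabotropic glutamate receptor gene, held regions at 32.0% in CUMS and 0.0732% in Ctrl (chr4:56079851-56080067) and at 26.2% and 0.0394% (chr4:56660645-56660933). Erbb4, the gene of a neuregulin receptor, held regions at 30.5% and 9.31% (chr9:70395876-70396268) and at 20.1% and 0.0659% (chr9:70485100-70485403). Tmtc1, an endoplasmic reticulum mannosyltransferase gene, held regions at 32.8% and 0.391% and at 29.3% and 0.0207%. In these genes both regions were higher in CUMS, as they were in Ablim3, Atxn7l1, Setbp1, Tmem164 and Trpm3, where CUMS levels ran from 20.4% to 34.9% and Ctrl levels from 0.148% to 3.04%. In the other two genes the regions went in opposite directions. Itpr2, which encodes an inositol trisphosphate receptor that releases calcium from internal stores, had 5.88% in CUMS and 25.1% in Ctrl at chr4:179205388-179205649 and 34.2% and 0.0934% at chr4:179349328-179349633. Cdkal1, a tRNA-modifying enzyme gene, had 0.243% and 22.8% at chr17:34801697-34801922 and 30.8% and 0.516% at chr17:35020231-35020511. All of these regions were intronic.

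Gene lists for channels, barrier and brain cells were read against all genes, of which 6.65% of those with an annotated CHH region held a region at 20% or more. Of 26 voltage-gated calcium channel genes, 12 had an annotated CHH region and 1 had a region at 20% or more. This was Cacna1b, the pore-forming subunit of the N-type channel, with 0.484% in CUMS and 22.9% in Ctrl in an intron over RLTR20A4 and RLTR32_Rn elements (chr3:7396345-7396685, 122 cytosines). None was in the 42 endothelial and blood-brain barrier genes, of which 7 had an annotated CHH region. None was in the DNA methylation and one-carbon genes (1 of 28 with an annotated CHH region), the stress axis genes (5 of 15), the genes of other brain cells (6 of 23) or the genes assayed by PCR or blotting in the same project (3 of 9). With so few genes annotated, a count of 0 does not set these lists apart from all genes. Of 24 neuronal genes, 14 had an annotated CHH region. In this list Nrg3, which encodes a ligand of the Erbb4 receptor, was at 21.6% in CUMS and 3.75% in Ctrl (chr16:14622289-14622601). Other genes of cell adhesion and synapses, picked after their values were seen, were Nlgn1 (33.3% in CUMS and 7.26% in Ctrl), a postsynaptic adhesion protein, Gria4 (23.7% and 0.0424%), an AMPA receptor subunit, and Itga8 (23.1% and 0.183%), an integrin subunit. Long genes offer more room for such regions, and gene length was not taken into account.

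CHH and CHG methylation are laid down by the same enzymes, so the overlap of the contexts was examined. A CHG region overlapped 24 of the 750 (3.20%), against 4.19% of the other CHH regions. In 23 of these 24 the CHG region changed in the same direction, 16 higher in CUMS and 7 higher in Ctrl, and its level in the higher group had a median of 22.3% (6.68% to 57.0%). In that group the CHG level divided by the CHH level had a median of 0.967, from 0.259 to 1.90. The median was thus near equality while single places differed widely, and both levels come from the same libraries. Equal direction was not counted among the other CHH regions with a CHG overlap, so 23 of 24 does not set the 750 apart. The CHG regions held a median of 10 cytosines.

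The highest pair was at chrX:126173170-126173463, with CHH levels of 0.0816% in CUMS and 35.1% in Ctrl and CHG levels of 2.38% and 57.0%. At chr7:95501302-95501493 the CHH levels were 30.1% and 0.14% and the CHG levels 40.5% and 0.1%. At chr6:107937841-107938310 they were 27.2% and 0.0467% for CHH and 29.2% and 0.0434% for CHG, with 54 CHG cytosines. These places had low levels in both contexts in the other group. At chrX:40897478-40897829 the CHH levels were 28.2% and 0.603% and the CHG levels 36.3% and 0.133%. In Cdc14a, a phosphatase gene, they were 27.4% and 0.216% for CHH and 20.2% and 0.0445% for CHG (chr2:204301702-204302027). The CHG level could thus lie above or below the CHH level. In Slco6c1, an organic anion transporter gene, the CHH region reached 30.1% in CUMS while the CHG region reached 7.79% (chr9:97560285-97560528). The Cacna1b intron had CHG levels of 0.0961% in CUMS and 8.63% in Ctrl, the same direction as its CHH levels. The exception was Pcsk5, a proprotein convertase gene, where the CHH region was at 32.5% and 0.712% and a CHG region with 19 bp of overlap was at 0.0183% in CUMS and higher in Ctrl (chr1:215001234-215001553). Seen from the CHG side, 38 of 9020 CHG regions (0.421%) reached 20%, 33 of them overlapped a CHH region and 14 a CHH region at 20% or more. The overlap of CHG regions below 20% was not counted beside this.

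**Figure D5:**
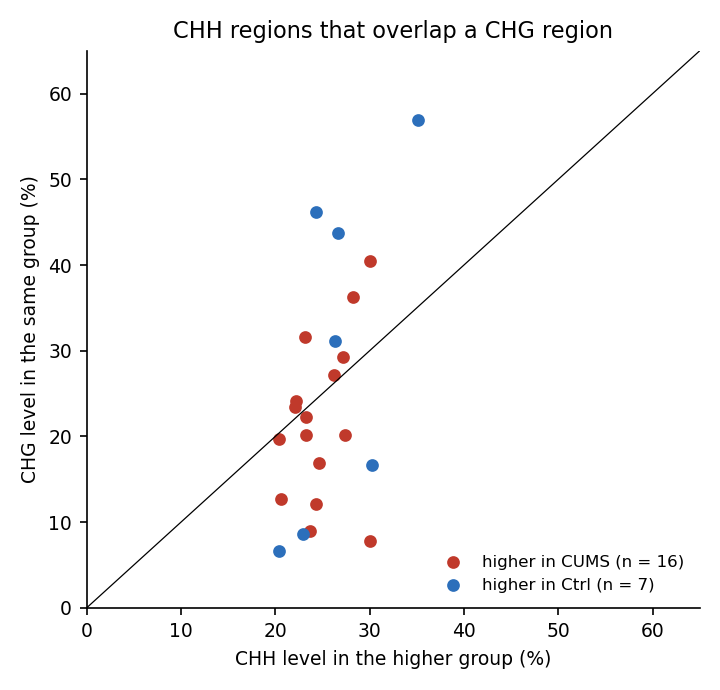
CHH level (x axis, %) and CHG level (y axis, %) in the group where the CHH level is higher, for the 23 CHH regions at 20% or more whose overlapping CHG region has the same direction; red is higher in CUMS (16), blue higher in Ctrl (7), and the line marks equal levels. The points lie on both sides of the line, with 11 above it.

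No CG region overlapped any of the 750, and 241 of the other CHH regions (0.166%) had such an overlap. Within 2 kb of a CG region there were 10 (1.33%), against 1.11% of the others. A CG level of 20% or more is common (4016 of 5849 CG regions, 68.7%), as CG sites are methylated in most of the genome. With so low a share among the other CHH regions, the absence of an overlap does not set the 750 apart.

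The regions were scattered over the genome, with 700 on chromosomes 1 to 20, 46 on X, 3 on Y and 1 on an unplaced sequence. The autosomes held 5.25 per 1000 CHH regions, from 3.69 on chromosome 18 to 7.27 on chromosome 17, and X held 4.01. On each of the 20 autosomes more than 50% were higher in CUMS, from 77.1% on chromosome 17 to 100% on chromosome 13. Another CHH region lay within 1 kb of 106 of the 750 (14.1%), against 13.2% of the other CHH regions, and 68 of 118 such neighbours (57.6%) had the same direction. Within 10 kb the shares were 72.1% and 69.0%. The spacing was thus close to that of the other CHH regions, and neighbours were of either direction. Equal direction was not counted for neighbours of the other CHH regions, so the 57.6% has no reference share.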

How the data were processed

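DNA methylation was measured in sorted hippocampal BMECs of 3 Ctrl and 3 CUMS rats, grouped by sample title. Per the labels, reads were processed with FastQC 0.11.3, fastp 0.20.0, Bowtie2 and Bismark 0.16.3 on mRatBN7.2, and the study's methods name DSS for regions. Methylation levels were deposited by the authors as a fraction per region and group, printed here in percent, beside region length and cytosine number. The authors' deposited columns of group differences and region scores were not reported; the score was read only to test that the reduced list held the 10000 CHH regions with the largest score. No depth or sample value was given, so the planned permutation test could not be run and no interval for a level could be given.

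Regions were selected, classified and overlapped (at least 1 bp) with Python 3.11.15, pandas 2.3.3 and numpy 2.4.6; the steps were tested on simulated data. A region counted as higher in CUMS by its level. Regions named were the 10 highest in each direction, the 12 highest in promoters or exons, the 8 highest overlapping CHG regions, the 5 with most cytosines, those at the limit, those in listed genes and genes with several. The members and lists were chosen with earlier results of these data known. Alternatives varied the level, difference, size, chromosomes, list and overlap. RefSeq promoter windows (GRCr8) were matched by symbol. Region sequences were not used here. Some genes covered by the naming rule are not reported here.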

Additional observations from a re-analysis of the deposited data

How the results depend on the processing

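Over 82 recalculations of 12 values, 72 stayed within 1.5 times a count or median, or within the 95% exact binomial interval of a share. Part of these could not move. Joining members within 1 kb left all 750, and limits of 20 cytosines or 100 bp left the 552 annotated members unchanged. Most settings kept a part of the same regions, and the interval treats regions as independent. The count of 72 is therefore no measure of robustness. The number of regions was 1811 at a limit of 15%, 323 at 25%, 148 at 30%, and 298 without repeats in the reduced list. The share higher in CUMS was 89.7% with at least 50 cytosines, 92.6% in the reduced list and 92.3% in that list without repeats, against 86.0%. The intron share was 40.7% at a limit of 30%. Members with a CHG region over at least 50% of their length were 1.33%. With 10 kb in place of 1 kb, chosen after seeing the data, 72.1% had a CHH neighbour. No share turned to a majority higher in Ctrl, but no setting kept only small regions, so this could not be seen. Of the 18 members with under 20 cytosines, 12 were higher in Ctrl. No paired analysis was possible because each region has 1 level per group, and for the same reason no replicate could be left out. Without depth, counting error of a level is unknown, and regions with few cytosines rest on few measurements.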

Other observations

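In all, 6 pairs of regions at 20% or more lay within 10 kb of each other, 4 with the same and 2 with opposite direction. On chromosome 19 a region over RLTR32_Rn at 0.27% in CUMS and 30.2% in Ctrl (chr19:18059253-18059552) lay 2042 bp from one at 20.98% and 0.0274% (chr19:18061595-18061880). On chromosome 2 the region with the highest level of all, 85.5% in CUMS and 64.0% in Ctrl, lay 7290 bp from one at 14.2% and 46.6%. Both pairs had levels of opposite direction a short distance apart, and the difference was not tested.

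Of the 198 regions without annotation, 22 lay between annotated regions of a single gene, and the gene is given here by that position alone. Among them were Kcnq5, a potassium channel gene (0.275% in CUMS and 30.8% in Ctrl), Lrp1b, a lipoprotein receptor gene (0.0836% and 25.3%), Cntnap5b, a neurexin family gene (30.4% and 0.512%), and Nrxn3, a presynaptic adhesion gene (27.2% and 0.0467%). A further region in Trpm3, a cation channel gene, was at 25.9% and 7.88%, the same direction as its annotated regions. These genes were picked after their values were seen.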
